A study of Homo sapiens with 12 samples.

Results

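Serpins are a superfamily of folded proteins, most of which trap a serine protease by a change of shape that inactivates inhibitor and enzyme together. The liver secretes many of them into the plasma, some have lost the inhibitory function and carry hormones instead, and clade B members stay mostly inside the cell. The 9 genes described here are serpins of hepatic or general expression that are not counted among the coagulation inhibitors. SERPINA1 encodes alpha-1-antitrypsin, the main plasma inhibitor of neutrophil elastase, and SERPINA3 encodes alpha-1-antichymotrypsin, an acute-phase inhibitor of chymotrypsin-like proteases such as cathepsin G. SERPINA4 encodes kallistatin, an inhibitor of tissue kallikrein, and SERPINA11 encodes a secreted family member whose target is not given here. SERPINA6 encodes corticosteroid-binding globulin and SERPINA7 encodes thyroxine-binding globulin, both hormone carriers without inhibitory activity. SERPINF1 encodes pigment epithelium-derived factor, a non-inhibitory and anti-angiogenic serpin. SERPINB1 encodes an intracellular inhibitor of neutrophil proteases, and SERPINB9 encodes the intracellular inhibitor of granzyme B.

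RNA of the human hepatoma line HepG2C3A, a clonal derivative of the liver tumour line HepG2, was measured on Affymetrix arrays with 3 arrays in each of 4 groups. These were cells given acetaminophen in a microsystem, control cells in a microsystem, cells given acetaminophen in Petri dishes and control cells in Petri dishes. All cells were kept in culture for 96 h and detached with trypsin before RNA extraction, and treated cells received acetaminophen, an analgesic that is toxic to the liver in overdose, for 72 h. The sources used here give neither the acetaminophen dose nor a description of the microsystem, and a single tumour-derived line stands for the hepatocyte. Values are log2 intensities made by the authors, so that a difference of 1 is a doubling, and a difference is given as the first-named group minus the second.

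The 9 genes are 9 of the 18404 genes to which the array annotation gives a probe set with exactly 1 symbol. They were listed by name with earlier results of these data known, so their tests are not independent of that choice. For each gene the probe set was chosen by the highest mean over the 12 arrays, a step without effect here because every member had exactly 1 such probe set. All 9 passed the filter on low values, which kept 13199 genes, and the lowest value of any member on any array (7.16) lay above the highest 40th percentile of an array (4.90). Levels of different genes come from different probe sets and are therefore not ranked against each other.

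Median log2 intensity per array lay between 5.56 and 5.63, and the correlation of arrays over all probe sets was 0.991 to 0.995 within groups and 0.976 to 0.993 between groups. Nothing in the labels says that the replicates are separate cultures. The p-values therefore weigh a difference only against the spread of these samples within groups. That spread may be technical, and the number of arrays limits the precision. An exact permutation test of 3 arrays against 3 cannot go below p = 0.1, so that the tests below are limma's moderated tests over 13199 genes with Benjamini-Hochberg adjustment. A gene is said to have risen or fallen where the adjusted p was under 0.05. All 14 hepatocyte markers on the array passed the filter. Their levels ranged widely, with ALB between 12.7 and 13.2 and FGB, the lowest, between 6.20 and 7.35. Markers of other cell types were mixed, since 4 of 8 fibroblast, 1 of 7 endothelial and 3 of 7 leukocyte markers on the array passed the filter. Those that passed were COL1A1 (5.96 to 6.49), COL1A2, COL3A1 and PDGFRB (5.61 to 6.22), CLEC14A (4.58 to 5.04), and LYZ (12.07 to 12.60), CD68 (8.06 to 9.56) and CD14. Among those that did not were DCN (2.61 to 2.84), PECAM1 (4.23 to 4.67) and PTPRC (2.44 to 2.74). In RNA of whole cultures, fewer cells that express a gene and less RNA per cell cannot be told apart.

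Culture in the microsystem was accompanied by lower levels of several of these serpins, and SERPINA11 stood far apart from the rest. Among control cells, 5 of 9 members fell in the microsystem relative to Petri dishes, none rose and 4 did not pass, against 18.3% of all tested genes that fell and 26.5% that rose. The median difference of the members was -0.62, against 0.01 over all genes tested. Among treated cells, 4 of 9 fell, none rose and 5 did not pass, against backgrounds of 18.9% and 22.6%, with a median of -0.30 against -0.001 over all genes. The groups did not overlap for 5 of 9 members among control cells and for 7 of 9 among treated cells, while this held for 52.4% and 52.9% of all genes.

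**Figure D1:**
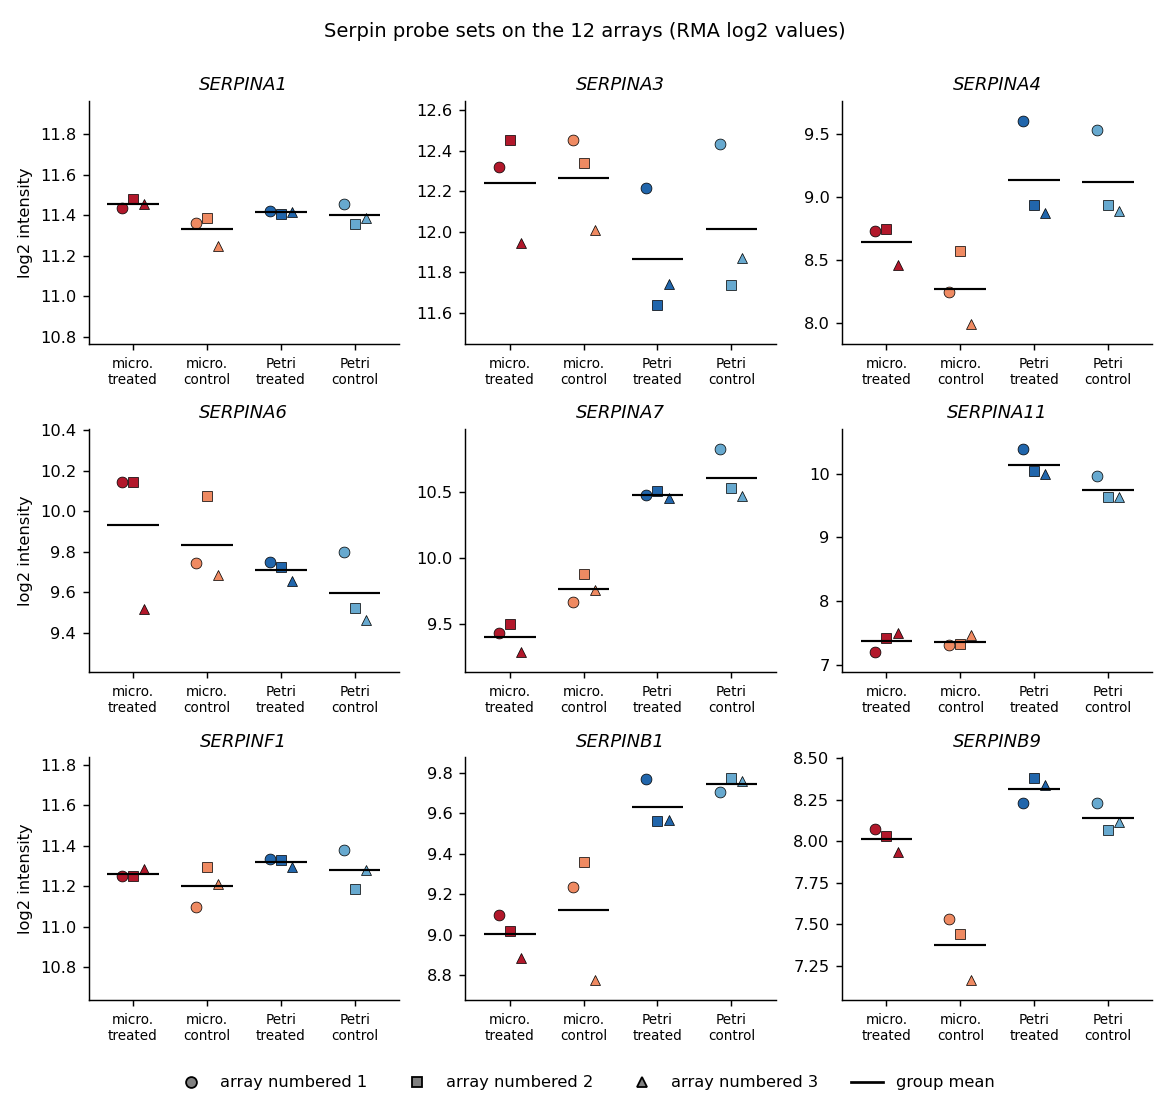
Log2 intensity of each of the 9 serpins on the 12 arrays, one panel per gene with its own vertical axis. Points are arrays and bars are group means; SERPINA11 lies between 7.20 and 7.49 on the 6 microsystem arrays and between 9.63 and 10.38 on the 6 Petri arrays.

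SERPINA11 had log2 intensities of 7.20, 7.42 and 7.49 in treated microsystem cells, against 10.38, 10.04 and 9.99 in treated Petri cells. In control cells the values were 7.31, 7.32 and 7.46 in the microsystem, against 9.97, 9.63 and 9.64 in Petri dishes. Every microsystem array thus lay more than 2 log2 units below every Petri array. SERPINA11 fell by 2.77 ± 0.12 (SE) among treated cells (6.80-fold, 95% interval of the log2 difference -3.03 to -2.50, adjusted p = 2.25e-08), the 4th lowest difference of 13199 genes. Among control cells it fell by 2.38 ± 0.12 (5.21-fold, -2.65 to -2.12, adjusted p = 5.24e-08), the 10th lowest.

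SERPINA4, the kallikrein inhibitor, had 8.24, 8.57 and 7.99 in microsystem control cells, against 9.53, 8.94 and 8.88 in Petri control cells. The groups did not overlap, and the gene fell by 0.85 ± 0.21 (1.80-fold, adjusted p = 0.00487). Treated cells showed 8.73, 8.74 and 8.46 in the microsystem, against 9.60, 8.94 and 8.88 in Petri dishes. These groups did not overlap either, but the difference of -0.49 ± 0.21 (95% interval -0.95 to -0.04) did not pass (adjusted p = 0.0752). It passed in 3 of 24 alternatives, with adjusted p up to 0.318 in the others. These 3 were without Petri control array 1 (adjusted p = 0.0466), with only the arrays compared in the fit (0.0496) and with the replicate block (0.021).

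The elastase inhibitor SERPINA1 did not pass in either comparison. It averaged 11.33 ± 0.08 in microsystem control cells and 11.40 ± 0.05 in Petri control cells (SD, n = 3 each), a difference of -0.07 ± 0.07 with a 95% interval of -0.22 to 0.09 (adjusted p = 0.468). In treated cells the means were 11.46 ± 0.02 in the microsystem and 11.41 ± 0.01 in Petri dishes, a difference of 0.04 ± 0.07 (-0.11 to 0.19, adjusted p = 0.661). On the single arrays, treated cells had 11.43, 11.48 and 11.45 in the microsystem, against 11.42, 11.41 and 11.41 in Petri dishes, which is a narrow gap without overlap.

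SERPINA3, the antichymotrypsin gene, varied widely within groups. Treated cells had 12.32, 12.45 and 11.94 in the microsystem, against 12.22, 11.64 and 11.74 in Petri dishes, and control cells had 12.45, 12.34 and 12.01 in the microsystem, against 12.43, 11.74 and 11.87 in Petri dishes. The groups overlapped in both comparisons. The differences were 0.37 ± 0.20 among treated cells (adjusted p = 0.152) and 0.26 ± 0.20 among control cells (adjusted p = 0.318), and neither passed. The Petri arrays numbered 1 stood apart, at 12.22 and 12.43, against 11.64 to 11.87 on the other 4 Petri arrays. Without both of them, an alternative chosen after seeing the data, SERPINA3 was higher in the microsystem by 0.55 ± 0.16 among treated cells (adjusted p = 0.0177) and by 0.465 ± 0.16 among control cells (adjusted p = 0.0341). Leaving out only treated Petri array 1 gave 0.55 ± 0.20 among treated cells (adjusted p = 0.0487), and array weights gave adjusted p = 0.0136 among treated and 0.0496 among control cells. Leaving out the highest Petri arrays widens the difference by construction, so these values do not decide whether the gene differed. SERPINA3 did not pass in 20 of 24 alternatives among treated and 22 of 24 among control cells.

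The hormone carriers differed from each other. SERPINA7, the thyroxine carrier, had 9.43, 9.50 and 9.29 in treated microsystem cells, against 10.48, 10.51 and 10.46 in treated Petri cells. Control cells had 9.67, 9.88 and 9.76 in the microsystem, against 10.82, 10.53 and 10.47 in Petri dishes. All 6 microsystem arrays lay below all 6 Petri arrays. SERPINA7 fell by 1.07 ± 0.10 among treated cells (2.10-fold, adjusted p = 3.2e-06) and fell by 0.84 ± 0.10 among control cells (1.79-fold, adjusted p = 2.06e-05).

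SERPINA6, the corticosteroid carrier, averaged 9.93 ± 0.36 in treated microsystem cells and 9.71 ± 0.05 in treated Petri cells, and 9.83 ± 0.21 in microsystem control cells and 9.59 ± 0.18 in Petri control cells (SD, n = 3 each). The groups overlapped, and the differences of 0.22 ± 0.16 (adjusted p = 0.281) and 0.24 ± 0.16 (adjusted p = 0.242) did not pass. The microsystem arrays numbered 3 were the lowest of the microsystem for this gene, at 9.51 and 9.68 against 9.74 to 10.14 on the other 4. Without both, SERPINA6 was higher in the microsystem by 0.43 ± 0.12 among treated cells (adjusted p = 0.012) and by 0.31 ± 0.12 among control cells (adjusted p = 0.0492). Leaving out the lowest microsystem arrays raises the difference by construction, so these values do not decide whether the gene differed. Leaving out only treated microsystem array 3, which has the same limit, gave 0.43 ± 0.13 among treated cells (adjusted p = 0.016). Array weights gave 0.36 ± 0.14 among control cells (adjusted p = 0.0371). SERPINA6 did not pass in 22 of 24 alternatives in each comparison.

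SERPINF1, the anti-angiogenic member, averaged 11.26 ± 0.02 in treated microsystem cells and 11.32 ± 0.02 in treated Petri cells, with groups that did not overlap. Among control cells it averaged 11.20 ± 0.10 in the microsystem and 11.28 ± 0.10 in Petri dishes (SD, n = 3 each). The differences were -0.06 ± 0.08 (adjusted p = 0.585) and -0.08 ± 0.08 (95% interval -0.25 to 0.08, adjusted p = 0.41), and neither passed.

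Both intracellular members fell. SERPINB1 had 9.10, 9.02 and 8.88 in treated microsystem cells, against 9.77, 9.56 and 9.56 in treated Petri cells, and 9.24, 9.36 and 8.78 in microsystem control cells, against 9.71, 9.78 and 9.76 in Petri control cells. No microsystem array reached a Petri array. The gene fell by 0.63 ± 0.13 among treated cells (1.55-fold, adjusted p = 0.00137) and fell by 0.62 ± 0.13 among control cells (1.54-fold, adjusted p = 0.00133). SERPINB9, the granzyme B inhibitor, had 7.53, 7.44 and 7.16 in microsystem control cells, against 8.23, 8.07 and 8.12 in Petri control cells. It fell by 0.76 ± 0.10 there (1.69-fold, adjusted p = 3.81e-05), with no overlap. Among treated cells the values were 8.07, 8.04 and 7.94 in the microsystem, against 8.23, 8.38 and 8.34 in Petri dishes, and SERPINB9 fell by 0.30 ± 0.10 (1.24-fold, adjusted p = 0.0228). That call was lost without treated microsystem array 3 (adjusted p = 0.0748), treated Petri array 2 (adjusted p = 0.0809) or treated Petri array 3 (adjusted p = 0.0664).

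**Figure D2:**
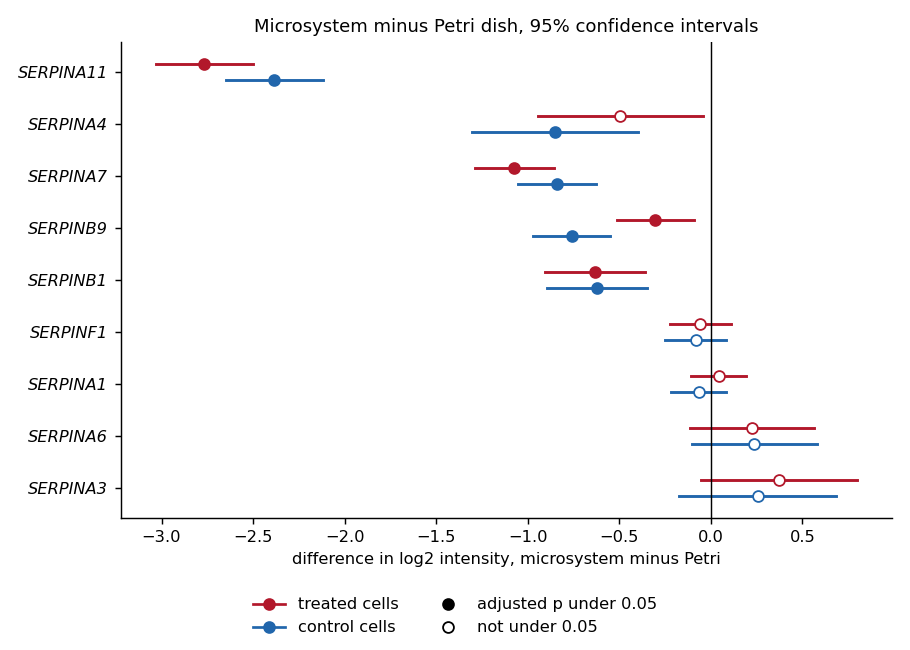
Difference in log2 intensity between microsystem and Petri dishes for each serpin, among treated and among control cells, with 95% intervals from limma and filled points where the adjusted p was under 0.05. SERPINA11 lies at -2.77 and -2.38, and the intervals of SERPINA1 and SERPINF1 include 0 in both comparisons.

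Markers of the hepatocyte moved with culture as well. Of 14 hepatocyte markers tested, 2 rose and 7 fell in the microsystem among control cells, and 2 rose and 5 fell among treated cells. Over all genes tested, 26.5% rose and 18.3% fell among control cells, and 22.6% rose and 18.9% fell among treated cells. The median difference of these markers was -0.37 among control and -0.16 among treated cells. The largest differences among control cells were those of VTN (-1.22), FGA (-1.12) and AHSG (-1.08). The log2 of the summed intensities of the 14 markers was 15.55 to 15.69 in treated microsystem cells and 15.64 to 15.79 in treated Petri cells, and 15.59 to 15.79 in microsystem control cells and 15.72 to 15.88 in Petri control cells. Of 7 leukocyte markers on the array, 3 passed the filter, of which LYZ rose and CD68 and CD14 fell in the microsystem in both comparisons, with PTPRC under the filter. The summed log2 level of all 7 was 12.44 to 12.69 in treated microsystem cells and 12.32 to 12.37 in treated Petri cells. It was 12.49 to 12.68 in microsystem control cells and 12.36 to 12.40 in Petri control cells. LYZ alone lay at 12.07 to 12.60, so this sum mostly follows LYZ. None of the 4 fibroblast markers and not the single endothelial marker that passed the filter was called in any comparison. The part of these markers in the serpin differences was not tested.

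The members lie on 4 chromosomes, 5 of them in the serpin cluster of chromosome 14, with SERPINB1 and SERPINB9 on chromosome 6, SERPINF1 on chromosome 17 and SERPINA7 on chromosome X. Neighbours in the chromosome 14 cluster did not move alike. Of 11 serpin genes in RefSeq order there, 7 were tested and 4 were under the filter. SERPINA1 and SERPINA11 are neighbours among the tested genes, and their differences among control cells were -0.07 and -2.38. SERPINA10, an inhibitor of activated factor X and factor XI, lies at the end of the cluster beyond SERPINA6 and rose in the microsystem, by 0.50 ± 0.12 among treated cells and 0.71 ± 0.12 among control cells (adjusted p = 0.00607 and 0.000467). SERPINA5, the protein C inhibitor gene between SERPINA4 and SERPINA3, differed by 0.25 and 0.10 and did not pass.

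**Figure D3:**
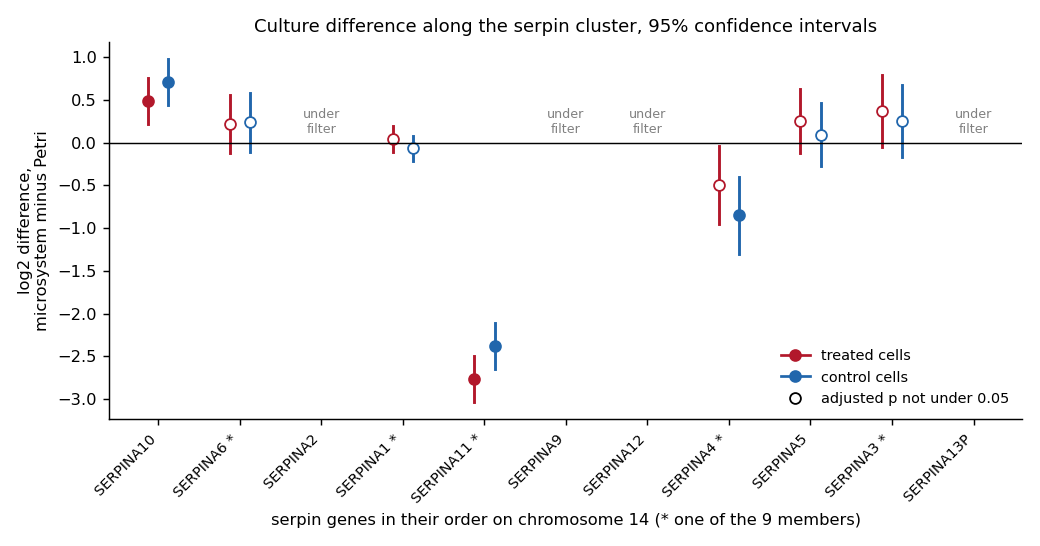
Difference in log2 intensity between microsystem and Petri dishes along the serpin genes of chromosome 14 in RefSeq order, among treated and among control cells, with 95% intervals. SERPINA11 and SERPINA4 lie below 0 and SERPINA10 lies above 0, and genes under the filter have no point.

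Promoters of 4 members of the cluster and of SERPINA7 are shown, each from a window that held a motif searched for below. They include the members with the largest and the smallest culture differences. Another window of SERPINA1 and the window of SERPINA3, also in the cluster, held none of the motifs and are not shown. RefSeq (GRCh38.p14) gives promoter windows for 8 of the 9 members, 9 windows in all, and the 250 bases before the start were searched on both strands for 5 motifs. Capitals mark GTTAAT, the core of the HNF1 site, or its reverse complement in SERPINA1, SERPINA4, SERPINA6 and SERPINA7, and TTCNNNGAA, a STAT motif, in SERPINA11. The 120 bases before the start are SERPINA1 at chr14:94388603-94388722 (minus strand), SERPINA11 at chr14:94452801-94452920 (minus), SERPINA4 at chr14:94561322-94561441 (plus), SERPINA6 at chr14:94323337-94323456 (minus) and SERPINA7 at chrX:106038728-106038847 (minus).
SERPINA1: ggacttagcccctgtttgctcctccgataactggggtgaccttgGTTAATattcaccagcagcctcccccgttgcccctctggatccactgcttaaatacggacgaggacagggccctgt
SERPINA11: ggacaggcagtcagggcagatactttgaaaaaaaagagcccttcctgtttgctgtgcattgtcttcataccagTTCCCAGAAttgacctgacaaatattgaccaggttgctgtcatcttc
SERPINA4: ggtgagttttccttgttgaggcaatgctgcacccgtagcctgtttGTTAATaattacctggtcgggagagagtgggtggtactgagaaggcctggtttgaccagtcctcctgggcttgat
SERPINA6: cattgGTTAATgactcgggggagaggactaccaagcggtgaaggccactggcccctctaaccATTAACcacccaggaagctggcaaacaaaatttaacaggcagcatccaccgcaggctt
SERPINA7: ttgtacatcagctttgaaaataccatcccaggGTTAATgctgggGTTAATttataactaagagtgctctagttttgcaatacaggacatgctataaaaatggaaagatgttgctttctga

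GTTAAT lay in 4 of the 9 member windows and in 6.23% of 35116 windows of the same length. It ends 71 bases before the start in SERPINA1 and 70 bases before it in SERPINA4, and SERPINA7 holds it at 88 to 83 and at 76 to 71. SERPINA6 holds 3 copies, at 58 to 53 (as ATTAAC, its reverse complement), at 115 to 110 and, outside the printed stretch, at 170 to 165. TTCNNNGAA lay in the windows of SERPINA11, SERPINA6 and SERPINB1 and in 6.57% of all windows. TGTTTAC, a forkhead motif, lay in SERPINA6 and in 2.98% of all windows, while TTGCGCAA (C/EBP) and TGACTCA (AP-1) lay in none of the member windows, against 0.131% and 4.2% of all. Of the 4 genes with GTTAAT, SERPINA4 and SERPINA7 fell in microsystem control cells, and SERPINA1 and SERPINA6 did not pass.

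Acetaminophen in the microsystem moved a pair of members past the threshold, in opposite directions. Of 9 members, 1 rose, 1 fell and 7 did not pass, against 6.39% of all genes that rose and 2.67% that fell, and the groups did not overlap for 3 of 9 (SERPINA1, SERPINA7 and SERPINB9), against 27.6% of all genes. The median of the members was 0.06, against -0.007 over all genes.

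SERPINB9 had 8.07, 8.04 and 7.94 in treated microsystem cells, against 7.53, 7.44 and 7.16 in microsystem control cells. The groups did not overlap, and SERPINB9 rose by 0.64 ± 0.10 (1.55-fold, 95% interval 0.43 to 0.85, adjusted p = 0.00207). The call held under all 25 alternatives, with differences of 0.53 to 0.71 and adjusted p of 0.00107 to 0.0274. SERPINB9P1, a pseudogene of SERPINB9 whose probe set lay between 4.91 and 5.32, differed by -0.13 (adjusted p = 0.457).

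SERPINA7 had 9.43, 9.50 and 9.29 in treated microsystem cells, against 9.67, 9.88 and 9.76 in microsystem control cells. No treated array reached a control array, and SERPINA7 fell by 0.36 ± 0.10 (1.29-fold, 95% interval -0.58 to -0.15, adjusted p = 0.0377). The call was lost in 12 of 25 alternatives, over which the adjusted p ran from 0.0193 to 0.169. Leaving out treated microsystem array 1, 2 or 3 gave adjusted p of 0.0717, 0.066 and 0.109, and leaving out microsystem control array 2 or 3 gave 0.131 and 0.0752. Without treated Petri array 2 or 3 it was 0.0548 and 0.0539, without Petri control array 2 it was 0.0516, and without both microsystem arrays numbered 3 it was 0.169.

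The remaining members did not pass in the microsystem in the main fit. SERPINA4 was higher by 0.38 ± 0.21 (95% interval -0.07 to 0.83, adjusted p = 0.274), with overlapping groups. It passed in 1 of 25 alternatives, that with the replicate number as a block within each culture (SE 0.08, adjusted p = 0.0132). SERPINA1 had 11.43, 11.48 and 11.45 in treated cells, against 11.36, 11.39 and 11.25 in control cells, groups that did not overlap, and differed by 0.12 ± 0.07 (adjusted p = 0.282). SERPINA11, the gene furthest apart between cultures, differed by 0.01 ± 0.12 (adjusted p = 0.969). SERPINA3, SERPINA6, SERPINF1 and SERPINB1 differed by -0.03, 0.10, 0.06 and -0.12, with adjusted p of 0.574 to 0.942.

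**Figure D4:**
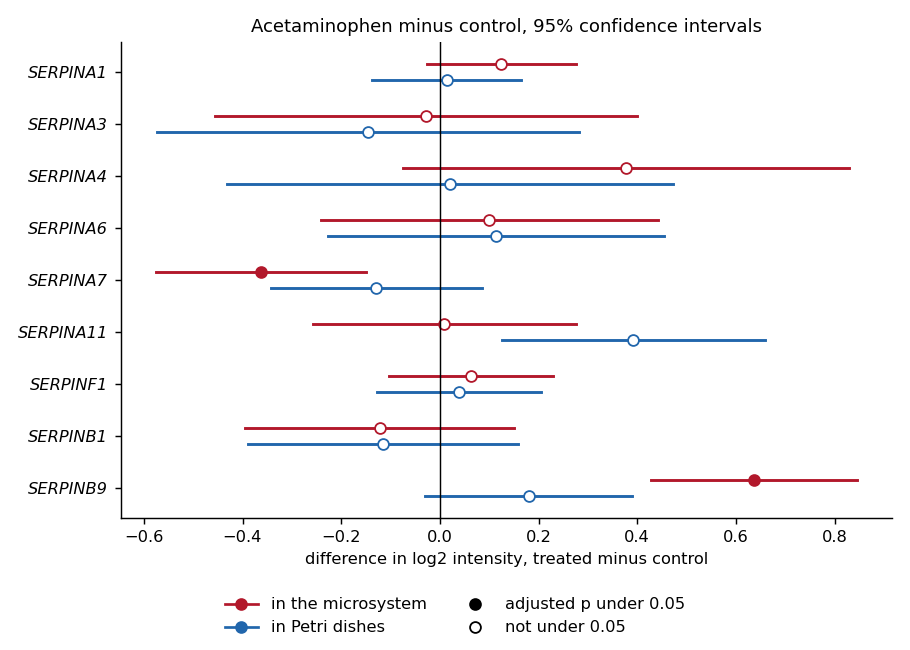
Difference in log2 intensity between acetaminophen-treated and control cells for each serpin, in the microsystem and in Petri dishes, with 95% intervals from limma and filled points where the adjusted p was under 0.05. SERPINB9 lies at 0.64 and SERPINA7 at -0.36 in the microsystem, and SERPINA11 at 0.39 in Petri dishes did not pass in this fit without a replicate block.

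In Petri dishes none of the 9 members passed limma's test in the main fit, while 10.4% of all genes (1367) were called in either direction. With the replicate number as a block within each culture, 1 of 9 passed (SERPINA11, adjusted p = 0.00586) and 2180 genes were called. The groups did not overlap for 1 of 9 members, against 34.5% of all genes. The median was 0.02, against 0.01 over all genes.

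SERPINA11 was the member closest to the threshold, with 10.38, 10.04 and 9.99 in treated Petri cells, against 9.97, 9.63 and 9.64 in Petri control cells. Every treated array lay above every control array, and the difference was 0.39 ± 0.12 (95% interval 0.13 to 0.66, adjusted p = 0.0619). The differences between arrays of the same number were 0.41, 0.41 and 0.35. With the replicate number as a block within each culture, the same difference had an SE of 0.07 and passed (adjusted p = 0.00586). It also passed with array medians set equal (0.43, adjusted p = 0.0391), with array weights (0.39, adjusted p = 0.00831) and without Petri control array 1 (0.50, adjusted p = 0.0282). In the other 21 of 25 alternatives it did not pass, with adjusted p up to 0.194.

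The other members were further from it. SERPINB9 had 8.23, 8.38 and 8.34 in treated Petri cells, against 8.23, 8.07 and 8.12 in Petri control cells. The difference of 0.18 ± 0.10 (95% interval -0.03 to 0.39) did not pass (adjusted p = 0.262). It passed in 1 of 25 alternatives, that with array weights (0.24, adjusted p = 0.0217). SERPINA7 differed by -0.13 ± 0.10 (adjusted p = 0.438), SERPINA3 by -0.15 ± 0.20 (adjusted p = 0.682) and SERPINB1 by -0.12 ± 0.13 (adjusted p = 0.605). SERPINA1, SERPINA4, SERPINA6 and SERPINF1 differed by 0.01, 0.02, 0.11 and 0.04, with adjusted p of 0.687 to 0.964. For SERPINA1 and SERPINF1 the 95% intervals ran from -0.14 to 0.17 and from -0.13 to 0.21.

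Whether acetaminophen acted differently in the 2 cultures was tested as the treatment difference in the microsystem minus that in Petri dishes. None of the 9 members passed, against 0.0303% of all genes (4 of 13199). The members with the lowest adjusted p were SERPINB9, with 0.46 ± 0.14 (95% interval 0.16 to 0.75, adjusted p = 0.421), and SERPINA11, with -0.38 ± 0.17 (adjusted p = 0.672). SERPINA4 differed by 0.36 ± 0.30 (adjusted p = 0.839) and SERPINA7 by -0.23 ± 0.14 (adjusted p = 0.774). The call of SERPINB9 in the microsystem and its absence in Petri dishes therefore do not show a culture-specific response in these data.

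The other serpins moved in both directions between cultures. Of 28 listed, 24 were on the array and 10 were tested, of which 2 rose and 5 fell in the microsystem among control cells, and 2 rose and 4 fell among treated cells. The shares of all genes that rose and fell were 26.5% and 18.3% among control cells and 22.6% and 18.9% among treated cells, so that the number that rose is close to the background. SERPIND1, heparin cofactor II, fell by 1.62 among treated and by 1.35 ± 0.11 among control cells (adjusted p = 1.3e-06). SERPINI1, neuroserpin, fell by 0.99 and by 1.40, and SERPINE2, protease nexin 1, fell by 1.36 ± 0.43 among control cells. SERPINE2 was low in microsystem control cells, with a mean of 5.26. SERPINB8 rose by 0.70 among treated cells. Acetaminophen gave no call among the 10 in Petri dishes and 1 in the microsystem, where SERPINI1 rose by 0.81 ± 0.23 (adjusted p = 0.0466). Over all genes, 10.4% were called in Petri dishes, and 6.39% rose and 2.67% fell in the microsystem. SERPINI1 was low there, with a mean of 5.16 in control cells, against 40th percentiles of 4.80 to 4.90 on the arrays.

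Among 19 proteases listed as targets or relatives of targets of these inhibitors, 4 rose and 7 fell in the microsystem among control cells and 3 rose and 6 fell among treated cells. The all-gene shares were 26.5% higher and 18.3% lower among control cells and 22.6% higher and 18.9% lower among treated cells, and the number of proteases that rose does not exceed them. CASP8, the apical caspase of death receptors, rose by 1.203 among treated and 1.294 among control cells, while HGFAC, the activator of hepatocyte growth factor, fell by 1.17 and by 1.25. CTSV, a lysosomal cysteine protease, rose with acetaminophen by 1.42 ± 0.14 in the microsystem and by 0.95 ± 0.14 in Petri dishes, and fell by 1.24 in microsystem control cells. Its mean in microsystem control cells was low, at 5.03, against a highest 40th percentile of 4.90. CTSB rose by 0.44 and CASP4 fell by 0.55 with acetaminophen in the microsystem, and PRTN3, proteinase 3, fell by 0.31 in Petri dishes.

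Of 24 genes of serpin secretion and endoplasmic reticulum quality control, 10 rose and 5 fell in microsystem control cells, and 5 rose and 4 fell among treated cells. Against all-gene shares of 22.6% higher and 18.9% lower, the counts among treated cells are at the background, as is the number that fell among control cells (18.3% of all genes, with 26.5% higher). The chaperone HSPA5 rose by 0.59 and MCFD2 by 0.55 among control cells, the cargo receptor SURF4 rose by 0.46 among treated cells, and the prolyl isomerase FKBP10 fell by 0.77 among treated and by 0.74 among control cells. LMAN1, a cargo receptor that carries glycoproteins including alpha-1-antitrypsin out of the endoplasmic reticulum, fell by 0.63 in treated cells of the microsystem against Petri dishes and by 0.34 with acetaminophen in the microsystem. UGGT2 rose by 0.36 with acetaminophen in the microsystem and EDEM1, which sends misfolded glycoproteins to degradation, by 0.34 in Petri dishes.

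Of 19 genes that regulate serpin genes in the liver, 4 rose and 7 fell in the microsystem among treated cells, and 3 rose and 9 fell among control cells. Over all genes, 22.6% rose and 18.9% fell among treated cells, and 26.5% rose and 18.3% fell among control cells. NR3C1, the glucocorticoid receptor, whose ligand SERPINA6 carries, fell by 1.09 among treated and by 1.55 among control cells. IL1R1 rose by 1.612 and 1.502, OSMR rose by 0.94 among control cells, and FOXA2 fell by 0.93 among treated cells. With acetaminophen in the microsystem 4 rose and none fell, against 6.39% and 2.67% of all genes, among them TGFB1 (0.64), NR3C1 (0.54) and JAK1 (0.31), and in Petri dishes STAT3 rose by 0.56 ± 0.11 (adjusted p = 0.0062) and IL6ST, the shared signalling receptor of interleukin 6 cytokines, fell by 0.32. No regulator was called in the difference of treatment effects.

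Of 10 hormone carriers and hormone receptors, 3 rose and 2 fell in microsystem control cells, and 1 rose and 3 fell among treated cells. The counts among control cells are near the all-gene shares of 26.5% and 18.3%, and those among treated cells stand beside shares of 22.6% and 18.9%. NR3C2, the mineralocorticoid receptor, fell by 0.54 in both comparisons, RBP4, the retinol carrier, fell by 0.48 among treated cells, and THRB, a thyroid hormone receptor, rose by 0.37 among control cells. NR3C2 averaged 4.824 in control and 4.805 in treated microsystem cells, at the level of the filter (40th percentiles of 4.80 to 4.90). SHBG, the carrier of sex steroids, rose by 0.43 with acetaminophen in Petri dishes. Of 7 partners of SERPINF1 and SERPINA4, none rose and 3 fell among treated cells, and none rose and 4 fell among control cells, and none was called with acetaminophen in either culture. The share of all genes that fell was 18.9% among treated and 18.3% among control cells. VEGFA, the angiogenic factor that pigment epithelium-derived factor opposes, fell by 1.92 among treated cells and fell by 2.21 ± 0.14 among control cells (adjusted p = 1.9e-07), while SERPINF1 itself did not pass.

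The 3 members with the widest range of group means were SERPINA11 (2.77), SERPINA7 (1.202) and SERPINB9 (0.94). The genes whose log2 values over the 12 arrays were most like those of SERPINA11 by Pearson's r were SRRM1 (0.993), LPCAT1 (0.993) and IGFBP3 (0.992). Those most like SERPINA7 were AHSG (0.986), MTMR4 (0.984) and VTN (0.982), of which AHSG and VTN are hepatocyte markers above. Those most like SERPINB9 were EPB41L5 (0.977), GPR157 (0.973) and FOSL2 (0.969). Between members, r over the 12 arrays was 0.93 for SERPINA7 and SERPINA11, 0.90 for SERPINA7 and SERPINB1, 0.87 for SERPINA11 and SERPINB1, and 0.79 for SERPINA4 and SERPINA11. These correlations are descriptions over arrays that share 4 groups, and they were not computed within a culture.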

How the data were processed

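RNA of 12 HepG2C3A samples was measured on Affymetrix arrays. Per the submitters' processing notes, the authors made the deposited log2 intensity of each probe set by RMA in Affymetrix Expression Console; versions and genome build: not given in the sources used here. RMA puts arrays on a common distribution, so a shift shared by all genes would not show. Of 32321 probe sets, 19158 had 1 symbol, 1388 several and 11775 none here; the probe set with the highest mean stood for each of 18404 genes. Genes above an array's 40th percentile on at least 3 arrays were kept (13199; 5205 removed). limma 3.58.1 in R 4.3.3 fitted 1 coefficient per group over all 12 arrays (8 residual and 5.35 prior degrees of freedom), and p-values were adjusted by Benjamini-Hochberg over 13199 genes at 0.05. The main fit was tested on simulated data for the treatment difference in Petri dishes only. Tables were made with Python 3.11.15 and pandas 2.3.3, figures with matplotlib 3.10.9. Groups come from the sample labels.

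The members and the gene lists were chosen with earlier results of these data known. All members were named. From every other list, genes were taken from those past the threshold with the largest differences, up to 3 per comparison, and not all of these were named. For the 3 members with the widest range of group means, the 3 most correlated genes were named. A few genes were named outside this rule, after their values were seen. They were SERPINA5, SERPINA10 and SERPINB9P1 as neighbours or relatives of members. Also named were ALB, FGB, PTPRC, PECAM1, DCN and the markers of other cell types that passed the filter. Same-numbered arrays deviated together in Petri dishes (r = 0.48, 0.19 and 0.31 between treated and control arrays). Their numbers were therefore taken to pair the samples there, which rests on the data, not on the labels. This choice is uncertain, since differently numbered arrays were not compared and the highest single value (r = 0.6, number 3) was in the microsystem. The main fit has no block. Results in Petri dishes, and that of SERPINA4 in the microsystem, are therefore also given with the replicate number as a block within each culture. Alternatives were the replicate block, other normalization, filters, probe set rules, variance models, array weights and leaving out arrays.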

Additional observations from a re-analysis of the deposited data

How the results depend on the processing

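Over 45 results (9 members in 5 comparisons), 1098 alternative values were computed, of which 1022 kept direction and call, 15 lost a call, 19 gained one, 42 changed sign without a call and 0 reversed a call. The 5 members that fell in microsystem control cells kept their calls throughout. Of the 9 members, 0 passed with acetaminophen in Petri dishes, against 1 with the replicate block within each culture, 1 with array medians set equal, 2 with array weights and 0 to 1 when leaving out single arrays. In the microsystem 2 passed, against 1 with only the arrays compared (SERPINA7 adjusted p = 0.0821), 1 after quantile normalization (0.0521), 1 with medians set equal (0.0551), 1 without both microsystem arrays numbered 3 and 1 to 2 when leaving out single arrays. The cause was not tested. Same-numbered microsystem arrays had r = 0.11, 0.07 and 0.6, highest for number 3, and same-numbered arrays of both cultures had r = -0.14 to 0.18, so that these numbers were not taken to pair the samples. With the replicate block there, SERPINA4 passed with acetaminophen in the microsystem (within each culture, adjusted p = 0.0132), and SERPINA4 (0.021) and SERPINA3 (0.0438) passed between cultures among treated cells; the block changed no other member's call apart from SERPINA11 in Petri dishes. The block within each culture could not be fitted for the comparisons between cultures, nor only the arrays compared for the difference of treatment effects. Counts over all genes moved by over 1.5 times in some settings. With acetaminophen in Petri dishes 1367 genes passed, against 2180 with the block within each culture, 3602 with array weights, 830 without both Petri arrays numbered 1 and 701 to 1520 without single arrays. In the microsystem 1196 passed, against 2109 with that block, 446 with only the arrays compared, 677 without both arrays numbered 3 and 460 to 1440 without single arrays. In the difference of treatment effects 4 passed, against 18 and 24 with the blocks, 7 after quantile normalization, 10 with an intensity trend, 54 with array weights, 11 and 1 without the microsystem arrays numbered 3 and the Petri arrays numbered 1, and 1 to 13 without single arrays.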

Other observations

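Arrays of the same number stood apart within a culture for several members. The Petri arrays numbered 1 lay outside the range of the other 4 Petri arrays for SERPINA1, SERPINA3, SERPINA4, SERPINA6 and SERPINF1. For SERPINA4 they had 9.60 in treated and 9.53 in control cells, against 8.88 to 8.94 on the others. The gap was narrow for SERPINA1 (lowest 11.42 against a highest of 11.413), SERPINF1 (11.336 against 11.329) and SERPINA6 (9.75 against 9.724). The microsystem arrays numbered 3 lay outside the range of the other 4 microsystem arrays for SERPINA3, SERPINA6, SERPINA11 and SERPINB1. For SERPINB1 they had 8.88 in treated and 8.78 in control cells, against 9.02 to 9.36 on the others. For SERPINA11 the gap was narrow (lowest 7.459 against a highest of 7.425). The share of all genes with such gaps was not computed. The labels do not say what a replicate number stands for.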
